A study of Mus musculus with 32 samples.

Results

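The 7 B cell genes described here are Cd79a, Cd79b, Ms4a1, Cd22, Blk, Pax5 and Fcrla. They were taken as every probe of the array whose gene name is one of these symbols, which gave 9 probes out of 55681, with a pair of probes each for Cd22 and Pax5 and 1 probe for each other gene. RNA from 32 hearts of individual C57BL/6 mice was measured on 1-colour Agilent arrays, with 1 array a mouse and 4 mice in each of 8 groups. Stressed mice spent 6 hours a day in a wire mesh box inside an aggressor's cage and were also placed directly with an aggressor for up to 2 minutes or 10 bites, a social defeat model of posttraumatic stress disorder. The conditions were 5 days of stress with 1 day of rest (T5R1), 5 days with 10 days of rest (T5R10), 10 days with 1 day of rest (T10R1) and 10 days with 42 days of rest (T10R42). Each condition had its own controls, which were kept in mesh boxes without an aggressor. The model is one of whole hearts, so the cells that carried each RNA were not separated.

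B cells recognise antigen through a membrane antibody that signals by way of the paired chains CD79A and CD79B, whose tails recruit the kinases of the pathway. CD20, the product of Ms4a1, is a surface protein of mature B cells, CD22 is an inhibitory coreceptor, BLK is a Src family kinase of the pathway, FCRLA is a receptor-like protein kept inside B cells, and PAX5 is the transcription factor that fixes B cell identity. The heart holds B cells, most of them inside or attached to its small vessels, and blood left in the tissue adds its own.

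The probes shown here are those on which the results turn, namely the 2 probes of Cd22, which gave different values, and the probes of Cd79b and Ms4a1, whose values varied together. The printed stretches are 30 bases of probes that are 60 bases long, 5′ to 3′, and capitals mark the probe's longest run made of A and C only. The array design places them on the minus strand of mm9, and exon annotation of that build was not used here. Cd22 probe 1 lies on chromosome 7 from 31651249 to 31651308 and Cd22 probe 2 on chromosome 7 from 31665113 to 31665172. The Cd79b probe lies on chromosome 11 from 106172780 to 106172839 and the Ms4a1 probe on chromosome 19 from 11325367 to 11325426.
Cd22 probe 1: AAAAACCAACCAACCAACCAAACAAAAAAC
Cd22 probe 2: caataggcacagACAAACCtcaccctccaa
Cd79b: agAACACACtggcttcaagaggagtctagg
Ms4a1: CCAAAtggcagagtagtttatttggtcttt
The run of A and C in Cd22 probe 1 was 34 bases long and began at base 9 of the probe, and 6 of the 55681 probes (0.0108%) held a run at least that long, against a median of 5 bases over all probes. Of the other probes, Cd79a lies on chromosome 7 from 25684357 to 25684614, Blk on chromosome 14 from 63997333 to 63998470, Pax5 probe 1 on chromosome 4 from 44658421 to 44658480, Pax5 probe 2 on chromosome 4 from 44550354 to 44582908 and Fcrla on chromosome 1 from 172848103 to 172848162. The mapped spans of the Cd79a, Blk and Pax5 probe 2 sequences are longer than the probe, at 258, 1138 and 32555 bases.

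Levels below are the log2 signal minus the array's own 75th percentile, so that a level of 0 equals that percentile, and a probe counts as detected in a heart where the scanner software marked it well above background. A change is the mean log2 level of stressed hearts less that of controls, with the standard error (SE) from limma, and a gene is called where its Benjamini-Hochberg adjusted p over all 27540 tested genes is below 0.05. The 75th percentile signal of the arrays lay between 237.2 and 498.9, from 28801 to 40699 probes were detected on an array, and hearts of a group correlated at 0.9821 to 0.9943. The 8 heart muscle markers were detected in all 32 hearts, and their mean level lay between 8.90 and 9.32 in stressed and between 9.04 and 9.32 in control hearts. Each condition's 8 arrays shared a slide, and on every slide the controls filled the first columns, so condition and slide, and likewise stress and array column, cannot be told apart.

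Detection differed widely among the probes. Cd79b and Cd22 probe 1 were detected in 32 of 32 hearts, Cd79a and Cd22 probe 2 in 28, Ms4a1 in 27, Pax5 probe 1 in 18, Blk in 17, Fcrla in 5 and Pax5 probe 2 in 2. Of the 7 genes, 6 passed the filter on dim probes, while Fcrla and Pax5 probe 2 did not, since no group had 3 hearts with either detected. For Cd22 and Pax5 the brighter probe, probe 1 in both cases, stood for the gene in the fit. No value of these probes was saturated. In whole hearts, fewer B cells and less of an RNA per cell cannot be told apart.

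**Figure D1:**
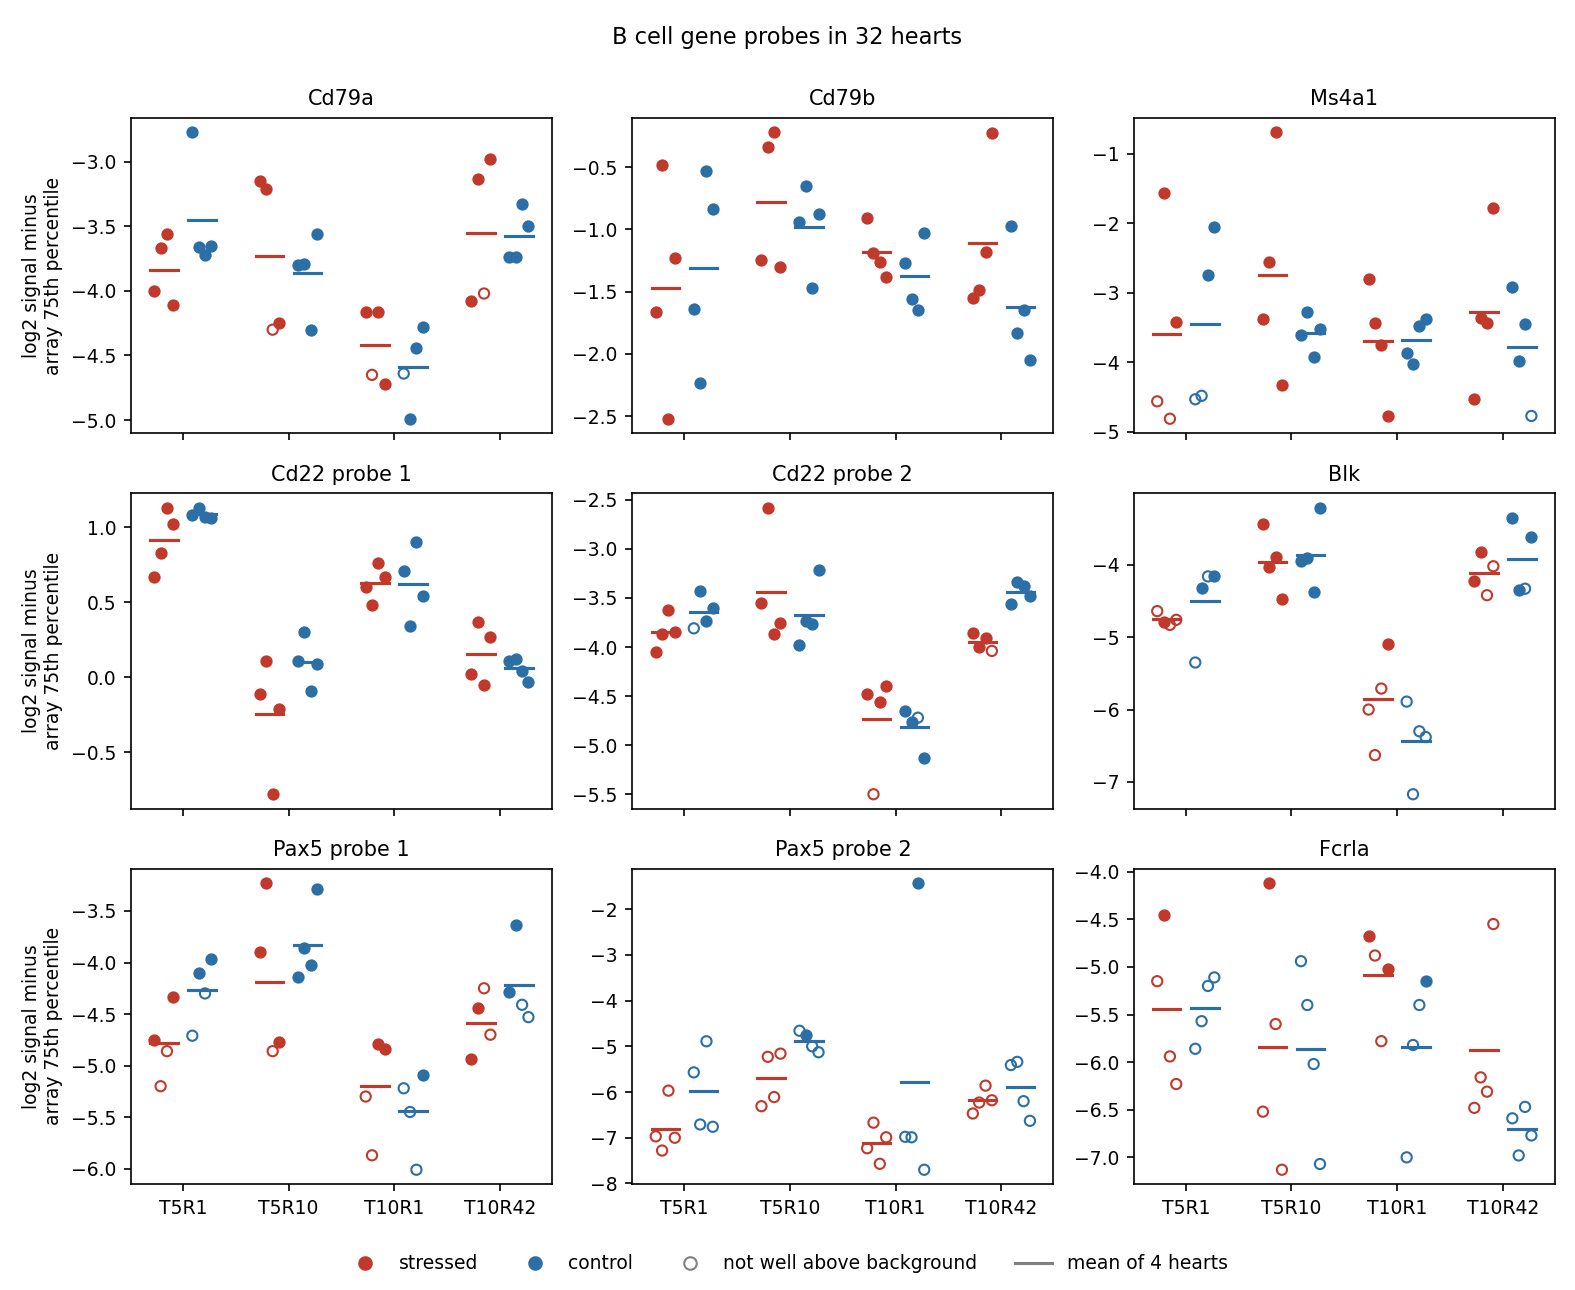
Level of each B cell gene probe (log2 signal minus the array's 75th percentile) in the 32 hearts, by condition, with stressed hearts in red left of control hearts in blue, open points not well above background and bars at the mean of 4 hearts. The arms overlap in every condition except for Cd22 probe 2 in T10R42 and the dim Pax5 probe 2 in T5R10, and the y axes differ between panels.

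No B cell gene was called with stress in any condition. In T5R1, 0 of 6 tested genes passed limma's test, where 13.8% of all genes did. In T5R10 the count was 0 of 6 against 0.0763% of all genes, in T10R1 0 of 6 against 1.13%, and in T10R42 0 of 6 against 0.897%. The mean of the 4 stress effects also gave 0 of 6, against 12.6% of all genes. At an unadjusted p below 0.05, limma gave 0 of 6 in T5R1 (29.5% of all genes), 1 of 6 in T5R10 (14.0%), 0 of 6 in T10R1 (13.1%), 0 of 6 in T10R42 (18.8%) and 0 of 6 for the mean (29.5%). Stressed and control hearts overlapped for all 6 genes in all 4 conditions, while 22.3%, 5.84%, 9.77% and 11.4% of all genes did not overlap in T5R1, T5R10, T10R1 and T10R42.

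The signs of these uncalled differences varied between conditions. In T5R1 all 6 genes lay below 0, with a median of -0.21 against -0.12 for all genes, although Ms4a1 was 0.01 under quantile normalisation and 0.08 with the authors' values. In T5R10 the median was 0.02 against -0.02 for all genes, in T10R1 0.18 against 0.00, and in T10R42 0.06 against -0.03. The intervals were widest for Ms4a1, for which the 95% interval ran from -1.60 to 1.33 in T5R1 and from -0.62 to 2.31 in T5R10, so the first reaches past 1 log2 unit on both sides of 0. For Cd22, measured here by probe 1 alone, it ran from -0.29 to 0.29 in T10R1.

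**Figure D2:**
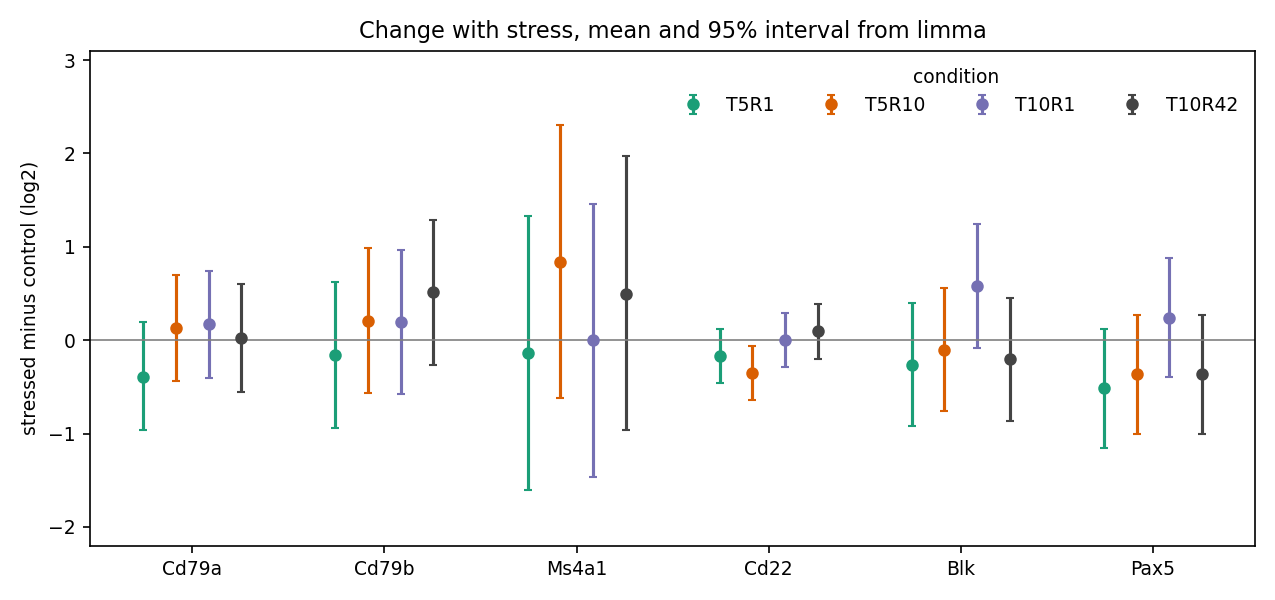
Stressed minus control change (log2) of the 6 tested B cell genes in the 4 conditions, with points for the limma estimate and bars for its 95% interval, n = 4 hearts an arm. All intervals include 0 except that of Cd22 in T5R10, from -0.64 to -0.06. Cd22 and Pax5 are each shown by their probe 1 alone.

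Cd79b and Cd79a encode the paired signalling chains of the B cell receptor. Cd79b in T5R1 was at -1.66, -0.48, -2.52 and -1.23 in the 4 stressed hearts, against -1.64, -2.23, -0.53 and -0.84 in the controls. In T5R10 it was at -1.25, -0.34, -0.22 and -1.30 in stressed hearts and at -0.94, -0.65, -1.47 and -0.88 in controls. In T5R1 both arms thus held hearts at either end of the range. In T5R10 the highest hearts, at -0.22 and -0.34, were stressed and the lowest, at -1.47, was a control. The arms overlapped in both conditions. In T10R1 the levels were -0.91, -1.19, -1.26 and -1.38 in stressed hearts and -1.27, -1.56, -1.65 and -1.03 in controls, and in T10R42 they were -1.55, -1.49, -1.18 and -0.23 in stressed hearts and -0.97, -1.83, -1.65 and -2.05 in controls. The changes were -0.16 ± 0.38, 0.21 ± 0.38, 0.20 ± 0.38 and 0.52 ± 0.38 in the order of the conditions (SE, n = 4 per arm, limma adjusted p = 0.81, 0.831, 0.874 and 0.481). One heart set much of the T10R42 difference: without stressed replicate 4 it was 0.22.

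Cd79a averaged -3.84 ± 0.26 in stressed and -3.45 ± 0.45 in control hearts of T5R1 (SD, n = 4 each). In T5R10 the means were -3.73 ± 0.64 in stressed and -3.86 ± 0.31 in control hearts. They were -4.42 ± 0.30 in stressed and -4.59 ± 0.31 in control hearts of T10R1, and -3.55 ± 0.57 in stressed and -3.58 ± 0.20 in control hearts of T10R42. The changes lay between -0.39 and 0.17 with an SE of 0.28, and none was called (limma adjusted p from 0.363 to 0.976). The arms overlapped in every condition. Over its 8 hearts, each condition's level was -3.64 in T5R1, -3.79 in T5R10, -4.50 in T10R1 and -3.56 in T10R42, with SDs of 0.30 to 0.47, so that only T10R1 lay apart by more than these spreads, on a slide scanned on another day than the rest.

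Ms4a1, which encodes CD20, differed widely between hearts of one group. In T5R1 its levels were -4.56, -1.56, -4.81 and -3.42 in stressed hearts and -4.53, -4.48, -2.74 and -2.05 in controls, with detection in 2 of 4 hearts in each arm. In T5R10 they were -3.38, -2.55, -0.69 and -4.33 in stressed hearts and -3.61, -3.28, -3.92 and -3.52 in controls. Stressed hearts were thus both the highest and the lowest of T5R10, on either side of 4 controls that lay close together. In T10R1 the levels were -2.80, -3.43, -3.75 and -4.77 in stressed hearts and -3.86, -4.03, -3.47 and -3.37 in controls, and in T10R42 they were -4.52, -3.36, -3.44 and -1.78 in stressed hearts and -2.91, -3.98, -3.45 and -4.77 in controls. The changes were -0.14, 0.84, 0.00 and 0.50 in the order of the conditions, each with an SE of 0.71 (n = 4 per arm), and limma's smallest adjusted p was 0.619. The T5R10 value was 0.16 without stressed replicate 3, and the T10R42 value was 0.00 without stressed replicate 4.

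Cd22 encodes an inhibitory receptor that dampens B cell receptor signals, and its 2 probes gave different accounts of stress. Probe 1 in T5R10 was at -0.11, 0.11, -0.78 and -0.21 in stressed hearts and at 0.11, 0.30, -0.09 and 0.09 in controls. The change was -0.35 ± 0.14 (SE, n = 4 per arm, limma adjusted p = 0.262, exact two-sided permutation p = 0.0857). Stressed replicate 3 was the lowest heart, and the change was -0.17 without it. The software's quality check set 3 arrays apart, T5R10 stressed replicates 1 and 2 and control replicate 4, and without them the change was -0.60 with a limma adjusted p of 0.0437. That fit kept stressed replicates 3 and 4 and control replicates 1, 2 and 3 of T5R10. Its stressed mean thus rested on the lowest heart and 1 other. Probe 2 in the same hearts had a change of 0.24 ± 0.22 (limma adjusted p = 0.665 with every probe that passed the filter fitted), opposite in sign, and with the mean of both probes the gene's change was -0.06.

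In T10R42 it was Cd22 probe 2 whose arms stood apart. It was at -3.86, -4.00, -3.91 and -4.04 in stressed hearts and at -3.56, -3.34, -3.38 and -3.48 in controls, so every stressed heart lay below every control. The change was -0.51 ± 0.22 (SE, n = 4 per arm, limma adjusted p = 0.222), and an exact two-sided permutation test gave 0.0286, the smallest p that 4 against 4 allows. In that condition 7.29% of tested genes had all stressed hearts lower. Probe 1 had a change of 0.10 ± 0.14 there (limma adjusted p = 0.769). Over the 32 hearts, the deviations of the 2 probes from their group means correlated at Pearson r = 0.49 and Spearman rho = 0.34 (permutation p = 0.058 and 0.09, adjusted over 21 pairs 0.28 and 0.35), and r was 0.25 without the 2 farthest hearts. The part of the long A and C run in these differences was not tested.

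Blk encodes a kinase of the receptor pathway and Pax5 the transcription factor of B cell identity, and both were near background. Blk in T10R1 was at -6.00, -6.63, -5.71 and -5.09 in stressed hearts, of which 1 was detected, and at -5.89, -7.17, -6.30 and -6.38 in controls, of which none was. The fitted difference was 0.58 ± 0.32 (SE, n = 4 per arm, limma adjusted p = 0.461) and the arms overlapped. With 1 of 8 hearts detected, no fold is given. In the other conditions Blk differed by -0.26, -0.10 and -0.20 in T5R1, T5R10 and T10R42, each with an SE of 0.32. Its 8 hearts in T10R1 lay between -7.17 and -5.09, below all 8 of T5R10, from -4.47 to -3.21, and all 8 of T10R42, from -4.42 to -3.36. The 8 of T5R1, from -5.35 to -4.16, overlapped those of T10R1. Condition and slide cannot be told apart here, and the T10R1 slide was scanned on another day than the rest.

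Pax5 probe 1 differed by -0.51 ± 0.31 in T5R1, where stressed hearts were at -4.75, -5.20, -4.86 and -4.33 and controls at -4.71, -4.10, -4.30 and -3.97 (SE, n = 4 per arm, limma adjusted p = 0.268). The arms overlapped through stressed replicate 4 and control replicate 1. In T5R10, T10R1 and T10R42 its changes were -0.36, 0.24 and -0.36. Pax5 probe 2, with none of the 8 hearts of T5R1 well above background, was at -6.31, -5.23, -6.11 and -5.16 in T5R10 stressed hearts and between -5.13 and -4.66 in controls. Every stressed heart lay lower there, as for 3.23% of tested genes, but 0 of 4 stressed and 1 of 4 control hearts were detected, so no fold is given. Fcrla was detected in 4 of 16 stressed hearts, which were T5R1 replicate 2, T5R10 replicate 2 and T10R1 replicates 1 and 4, and in 1 of 16 controls, T10R1 replicate 4. Its levels ran from -7.13 to -4.12 in stressed hearts and from -7.07 to -4.94 in controls.

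No difference of the stress effect between conditions was called for any tested B cell gene. For T5R10 minus T5R1, 0 of 6 genes were called where 2.48% of all genes were, for T10R42 minus T10R1 0 of 6 against 4.12%, and for T10R1 minus T5R1 0 of 6 against 0.592%. No gene had an unadjusted p below 0.05 in these, where 17.2%, 22.9% and 17.8% of all genes did. The largest difference of effects was that of Ms4a1 for T5R10 minus T5R1, 0.98 ± 1.01 (SE, limma adjusted p = 0.663). The difference with the smallest unadjusted p was that of Blk for T10R1 minus T5R1, 0.84 ± 0.45 (SE, limma adjusted p = 0.338).

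Hearts of the same group differed from each other more in Cd79b and Ms4a1 than most genes of like level did. The SD within groups was 1.06 for Ms4a1, at the 99.3 percentile of 3241 genes whose level lay within 0.5 of its own (median 0.35), and 0.56 for Cd79b, at the 97.1 percentile of 3015 genes (median 0.21). For Cd79a it was 0.41, at the 51.5 percentile, and for Cd22 probe 1, Cd22 probe 2, Blk and Pax5 probe 1 it lay between the 18.8 and the 69.6 percentile.

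Cd79b and Ms4a1 varied together from heart to heart. Deviations from the group means correlated at r = 0.86 and rho = 0.88 over 32 hearts (permutation p = 1e-05 for both, the smallest that 100000 permutations give, and 0.00021 adjusted over 21 pairs of probes), and r was 0.83 without the 2 farthest hearts. Within the 8 hearts of each slide r was 0.90 in T5R1, 0.83 in T5R10, 0.61 in T10R1 and 0.92 in T10R42. It was 0.89 over the 16 stressed and 0.84 over the 16 control hearts, and 0.81 over the 27 hearts in which Ms4a1 was detected. In 7 of the 8 groups the heart highest in Cd79b was also highest in Ms4a1, among them stressed replicate 2 of T5R1, stressed replicate 3 of T5R10 and stressed replicate 4 of T10R42. The exception was the T5R1 controls, with replicate 3 highest in Cd79b and replicate 4 in Ms4a1.

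For Cd79a, which encodes the partner chain of CD79B, the relation did not pass the test over all hearts. Its r was 0.08 with Cd79b and 0.09 with Ms4a1 (permutation p adjusted over 21 pairs 0.79 for both), and without the 2 farthest hearts these were 0.20 and 0.34. Within the slides of T5R1, T5R10, T10R1 and T10R42 its r was -0.27, 0.13, 0.55 and 0.35 with Cd79b, and -0.29, -0.13, 0.66 and 0.57 with Ms4a1. Of the other pairs, Cd79a with Cd22 probe 1 reached r = 0.58 (adjusted p = 0.037) and rho = 0.53 (adjusted p = 0.087), with r = 0.58 without the 2 farthest hearts and from 0.16 to 0.75 within slides. Cd22 probe 2 with Pax5 probe 1 reached r = 0.67 (adjusted p = 0.033) and rho = 0.52 (adjusted p = 0.087), with r = 0.49 without the 2 farthest hearts and from 0.26 to 0.94 within slides. Neither passed by rank, and no other pair passed by either measure.

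**Figure D3:**
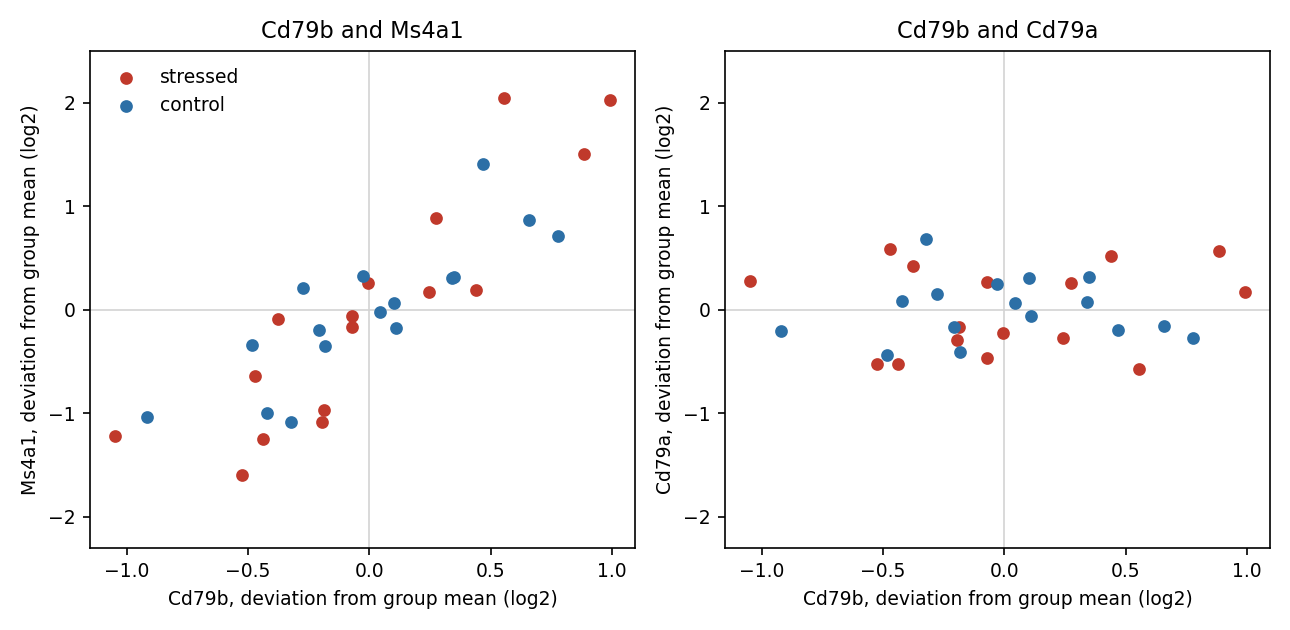
Deviation of each heart from its group mean (log2) for Cd79b on the x axis against Ms4a1 on the left and Cd79a on the right, with stressed hearts in red and control hearts in blue, 32 hearts. Ms4a1 follows Cd79b with r = 0.86, while r is 0.08 for Cd79a.

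The genes most like the mean deviation of the 6 tested genes included several known from B cells. Among 18303 other named genes, the 10 with the highest r over 32 hearts were Ly6d (0.87), Ltb (0.76), Pou2af1 (0.76), Spib (0.74), Fcmr (0.74), Jchain (0.74), Mirt1 (0.74), Cd2 (0.73), Aqp5 (0.72) and Marco (0.72). Of these, Spib was detected in 19 hearts, Aqp5 in 20 and Jchain in 22, and each of the others in at least 29. Ly6d is a surface protein of developing and mature B cells, Pou2af1 and Spib encode transcription regulators of B cells, Fcmr the receptor for IgM and Jchain the joining chain of secreted antibodies. Ltb is a lymphotoxin gene of B and T cells, Cd2 an adhesion gene of lymphocytes, Marco a scavenger receptor gene of macrophages and Aqp5 a water channel gene. Members contributed unequally to that mean, with r = 0.82 for Cd79b, 0.80 for Ms4a1, 0.52 for Blk, 0.42 for Cd79a, 0.39 for Pax5 and 0.26 for Cd22.

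Set against 16 other B cell markers one by one, Cd79b and Ms4a1 stood out among the members. The median r was 0.42 for each, and 7 markers reached 0.5 with Cd79b and 8 with Ms4a1. Cd79b reached 0.96 with Ly6d, 0.85 with Spib, 0.81 with Fcmr and 0.69 with Vpreb3. Spib was detected in only 19 hearts. For Cd79a the median was 0.10, with 1 marker at 0.5 or more, Fcer2a at 0.58, and for Blk, Pax5 probe 1, Cd22 probe 1 and Cd22 probe 2 it was 0.16, 0.08, 0.01 and 0.02. Some genes on the list of T cell markers moved with Cd79b too. The median r was 0.37 over 11 genes, and 3 reached 0.5, Cd2 at 0.86, Cd3g at 0.63 and Cd3d at 0.57, detected in 32, 19 and 27 hearts. The lowest was Cd3e at -0.08, with Cd4 at 0.05 and Thy1 at 0.06. The median over 10 macrophage markers was 0.07, over 6 red cell markers -0.04 and over 6 platelet markers -0.28, and the part of other cells in the pattern was not tested.

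**Figure D4:**
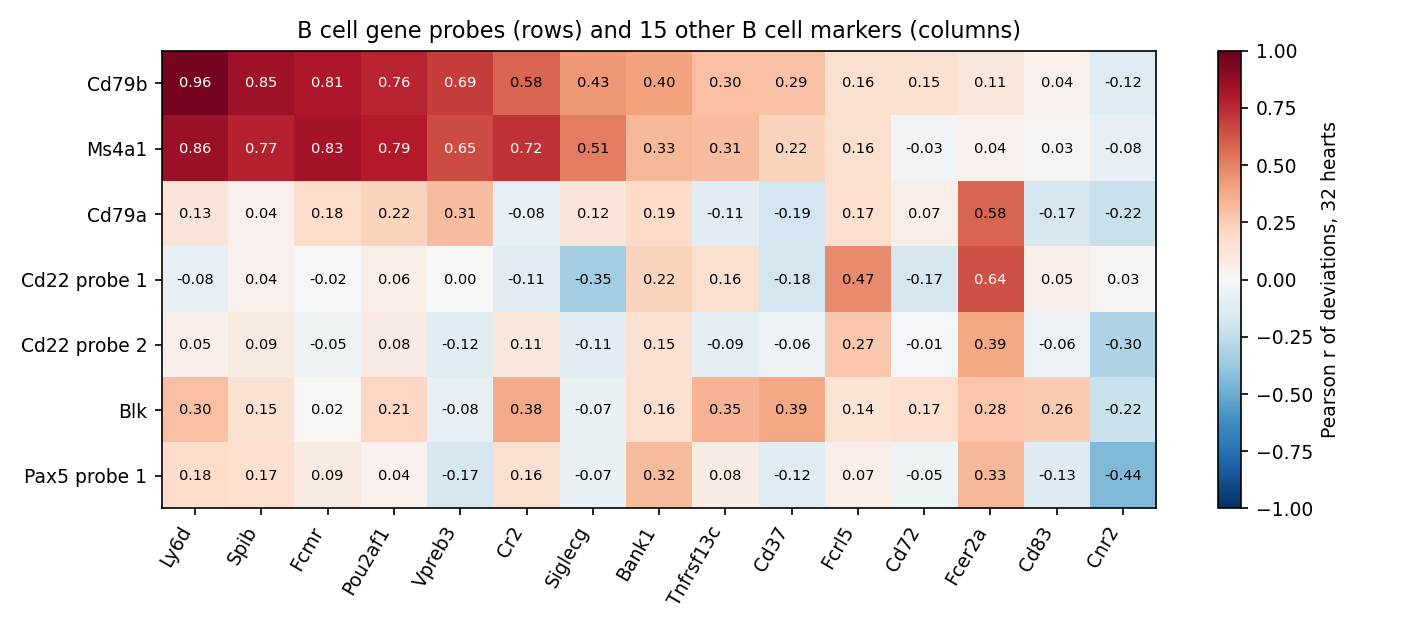
Pearson r of deviations from group means over 32 hearts between 7 B cell gene probes (rows) and 15 of the other B cell markers (columns, ordered by r with Cd79b), from -1 in blue to 1 in red. High values fill the left of the Cd79b and Ms4a1 rows, up to 0.96 for Cd79b with Ly6d, and are scarce in the other rows.

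Genes of the B cell receptor pathway changed in T5R1, while the share of other B cell markers called was near or below that of all genes. Of the 16 other B cell markers tested there, out of 22 on the list, 1 rose and none fell, against 5.31% and 8.45% of all genes. It was Cd72, a coreceptor of B cells that macrophages also carry, which rose by 1.64 ± 0.29 (SE, n = 4 per arm, limma adjusted p = 0.00045), with every stressed heart above every control. Its r with Cd79b was 0.15. Of 17 genes of B cell receptor signalling 6 rose and none fell. They included Fcgr2b, the inhibitory receptor for IgG, at 0.71 ± 0.15, Pik3cd, a phosphoinositide kinase subunit, at 0.62 ± 0.15, the exchange factor Vav1 at 0.59 ± 0.16 and the phospholipase Plcg2 at 0.47 ± 0.13 (limma adjusted p = 0.0019, 0.00619, 0.0162 and 0.0144).

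Many of these signalling genes are shared with myeloid cells, and macrophage markers were higher in the same hearts. Of 10 macrophage markers 6 rose in T5R1 and none fell, against 5.31% and 8.45% of all genes. Cd68 was among them, at 1.17 ± 0.20 (SE, limma adjusted p = 0.000344). The mean level of the 10 lay between 0.69 and 1.43 in stressed hearts and between 0.32 and 0.55 in controls. The part of those cells in the signalling genes was not tested. Of 10 genes of B cell attraction and survival, 2 rose and 1 fell, against 5.31% and 8.45% of all genes. The chemokine receptor gene Cxcr4 rose by 1.06 ± 0.21 and the costimulatory receptor gene Cd40 by 0.61 ± 0.14 (SE, limma adjusted p = 0.00108 and 0.00528). Cxcl13, which encodes a chemokine that draws B cells, fell by 2.00 on the log2 scale (SE 0.58, limma adjusted p = 0.0218, arms overlapping).

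In T5R1 5.31% of all genes rose and 8.45% fell. Among 11 B lineage transcription factors, Irf8, also a factor of myeloid cells, rose there by 0.65 ± 0.13 (SE, limma adjusted p = 0.00101) and none fell. Among 6 genes of antibody secreting cells, Mzb1, a chaperone for antibody assembly, fell by 0.66 (SE 0.20, limma adjusted p = 0.0306, arms overlapping). That call was lost under 9 of 21 alternatives, including quantile normalisation and the authors' values. None of 8 MHC class II genes was called in T5R1. Of 11 T cell markers 1 rose and 1 fell. Thy1, which other heart cells also carry, rose by 0.62 ± 0.10 (SE, limma adjusted p = 0.000189). Cd3e fell by 0.41 (SE 0.13, limma adjusted p = 0.0302), while Cd3d and Cd3g, at -0.37 and -0.13, were not called (limma adjusted p = 0.574 and 0.889).

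In the other conditions few listed genes were called. In T5R10 Cnr2, which encodes a cannabinoid receptor of B cells and other immune cells, fell by 1.09 (SE 0.21, limma adjusted p = 0.0466, arms overlapping), where 0.0545% of all genes fell. The call was lost under 10 of 21 alternatives. No other gene on the lists of B cell, receptor signalling, T cell or macrophage genes was called. In T10R1 none of the 16 other B cell markers and none of the 17 signalling genes was called, with 1 and 7 at an unadjusted p below 0.05, where 13.1% of all genes were. Pik3cd came nearest there at 0.54 ± 0.15 (SE, limma adjusted p = 0.0747). Of 10 macrophage markers in the same hearts 1 rose, where 0.773% of all genes did. It was Csf1r, the receptor gene for a macrophage growth factor, at 0.45 ± 0.09 (SE, limma adjusted p = 0.016). Of the 10 macrophage markers, 5 had an unadjusted p below 0.05. Their mean level lay between 0.62 and 1.05 in stressed and between 0.30 and 0.58 in control hearts, and the part of those cells was not tested. In T10R42 again none was called on either list, with 1 and 2 at an unadjusted p below 0.05, against 18.8% of all genes.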

How the data were processed

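Total RNA from 32 hearts was labelled with Cy3 and hybridised to Agilent arrays, 4 hearts in each of 8 groups. The deposited scanner files hold spot intensity values that were background-subtracted with Agilent Feature Extraction 10.7.3.1, per the file headers. A deposited table of the authors' values on a log2 scale, whose normalisation is not given in the sources used here, served as an alternative, and it correlated with the log2 mean signal at 0.9995 or more. Each array's processed signal was put on the log2 scale with no pseudocount, less its 75th percentile. Control spots and outlier spots were left out, and no probe value was saturated among the B cell genes. Probes were kept where well above background on at least 3 of 4 arrays of a group and missing on at most 4 arrays, and the brightest probe stood for a gene. limma 3.58.1 in R 4.3.3 fitted 8 group means over all arrays, with Benjamini-Hochberg adjustment over 27540 genes, after tests on simulated data. The number of arrays limits the precision. Names came from the RefSeq table of GRCm38.p6 for 26413 probes by accession and 574 through another probe, and from the array design for 28694.

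The B cell genes and the gene lists were chosen with earlier results of these data known. Named genes were the B cell genes, part of those called on the lists, and the 10 genes most like the mean of the B cell genes, plus single genes chosen after their values were seen (Pik3cd in T10R1, and correlations with Cd79b). A listed gene that is not named may thus still have been called. Pairs of probes were compared by permutation tests with 100000 permutations, which give a smallest p of 1e-05. Replicate numbers did not pair the hearts: deviations of 16 same-numbered pairs correlated at -0.27 to 0.21, with 5 over 0.1. The alternatives changed the background correction, normalisation, filter, probe choice and arrays, and those on the Cd79b and Ms4a1 correlation and the fit of all probes without a filter were added after seeing the data. Values of 1 marker on the lists are not reported here.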

Additional observations from a re-analysis of the deposited data

Results flagged for a closer look

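In 5 of 72 groups of 4 hearts, 1 heart lay farther from the others than Dixon's 95% critical value for 4 values allows, and chance flags about 1 in 20 groups. Cd79a was at -2.77 in control replicate 1 of T5R1, with the other 3 controls between -3.72 and -3.65. Blk in that same heart was at -5.35 and not well above background, with the other controls between -4.32 and -4.16. Cd22 probe 2 was at -5.50 in stressed replicate 2 of T10R1, not well above background, with the other stressed hearts between -4.56 and -4.40. Pax5 probe 2 was at -1.43 and well above background in control replicate 3 of T10R1, with the other controls between -7.70 and -6.98. Fcrla was at -4.55 in stressed replicate 4 of T10R42, not well above background, with the other stressed hearts between -6.48 and -6.16.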

How the results depend on the processing

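Counts of called B cell genes stayed at 0 under every alternative run except 1, with 6 tested genes, or 7 with no filter on dim probes: without the 3 arrays set apart by the quality check, T5R10 had 1 called gene, Cd22 at -0.60 (limma adjusted p = 0.0437), among 1109 called genes of 26877 tested, against 21 called genes with all arrays. In that setting the stressed arm of T5R10 held replicates 3 and 4 alone, and replicate 3 was the lowest heart for Cd22 probe 1. Of 1272 recomputed values for the B cell genes, 81 had the other sign, none of them called. Leaving out 1 heart at a time kept 0 called B cell genes in every contrast. Over all genes the same step gave 5 calls (without T5R10 control replicate 2) to 613 (without T5R10 stressed replicate 2) in T5R10, 32 (without T10R42 stressed replicate 3) to 1451 (without T10R42 stressed replicate 2) in T10R42, 86 to 298 in T10R1 and 2172 to 3828 in T5R1. The share of T5R1 calls that were lower was 61.4%, against 36.4% under quantile normalisation, 38.4% with the authors' values and 45.3% with the percentile taken over probes above background on all arrays. Among the list genes, Actc1 turned in the mean of the 4 stress effects, where it was -0.14, to 0.01 under quantile normalisation and 0.03 with the authors' values. The cause was not tested.

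With the replicate number as a block, 0 B cell genes were called in each contrast, and 3489, 0, 211 and 249 of all genes in T5R1, T5R10, T10R1 and T10R42. Fitting a condition's arrays alone gave 2561, 0, 4 and 0. Blk, Pax5 and Fcrla lay near background in many hearts, so their small differences are weakly measured.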

Other observations

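In the mean of the 4 stress effects, 5 of 17 receptor signalling genes rose and none fell, against 5.27% and 7.32% of all genes. Pik3cd rose by 0.40 ± 0.07 and Ptpn6, which encodes an inhibitory phosphatase recruited by CD22 and related receptors, by 0.36 ± 0.09 (SE, limma adjusted p = 0.00119 and 0.0101). Cd72 rose by 0.67 ± 0.15 (limma adjusted p = 0.00399). Of 10 macrophage markers 4 rose in that mean, among them Mrc1 by 0.40 ± 0.08. Of 8 heart muscle markers 3 fell in it, Myh6 by 0.22, Myl2 by 0.19 and Actc1 by 0.14 (SE 0.07, 0.06 and 0.04, limma adjusted p = 0.0271, 0.0453 and 0.0329), and the Myl2 call was lost under 27 of 44 alternatives, while Actc1 turned to 0.01 under quantile normalisation and to 0.03 with the authors' values. Of 11 T cell markers Thy1 rose, while Cd3e and Cd8a, a coreceptor chain of T cells, were called lower. The fitted difference of Cd8a was -0.92 (SE 0.23, limma adjusted p = 0.0101). Cd8a lay near background, with a median level of -4.80 and detection in only 13 hearts, so no fold is given. In T10R1 it was detected in 0 stressed and 0 control hearts. Cd8b1, on the same list and detected in 29 hearts, was at -0.05 in that mean and not called (SE 0.22, limma adjusted p = 0.907).

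The stress effect on Fcgr2b differed between T5R10 and T5R1 by -0.81 ± 0.21 and that on Cnr2 by -1.19 ± 0.30 (SE, limma adjusted p = 0.0358 and 0.033). Of 10 macrophage markers 5 were lower in the same difference, where 1.31% of all genes were. Genes of other blood cells also moved in T5R1: 3 of 6 red cell markers rose and none fell, against 5.31% and 8.45% of all genes. Among them was Ahsp, a haemoglobin chaperone gene, at 2.60 ± 0.63, and the mean level of the 6 lay between 3.35 and 5.50 in stressed hearts and between 2.30 and 3.06 in controls. None of 6 platelet markers and none of 3 thymocyte markers was called there, with 1 and 0 at an unadjusted p below 0.05 in limma. In T10R1 the platelet gene Gp1bb rose by 1.16 ± 0.28 (SE, limma adjusted p = 0.0361), where 0.773% of all genes rose. No platelet marker was called in T10R42. For T10R42 minus T10R1, 3 of the 6 were lower, Gp1bb, Gp9 and Gp6, where 2.23% of all genes were. Of 7 genes listed as markers of plasmacytoid dendritic cells 1 fell in T5R1, Cox6a2, which heart muscle also expresses. Its median level was 9.96, near those of the heart muscle markers Myh6 at 10.14 and Myl2 at 10.08. The part of heart muscle in its fall was not tested.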
